A study of Rattus norvegicus with 71 samples.

Results

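Solute carriers are membrane proteins that move amino acids, sugars, metals, nucleosides, lipids and other solutes across cell membranes without spending ATP directly. Their genes were followed here in the lung of newborn rats. Members are the genes whose symbol begins with Slc and a digit or with Slco, leaving out Slc34a2 and Slc7a10, and whose probe was detected (detection p under 0.01) on at least 3 arrays. The name rule gave 305 genes, of which 208 met the detection rule and 97 did not, among 9642 genes with a symbol and a tested probe. Of the 208 members, 18 were detected on fewer than 10 of the 71 arrays. Slc25a23 and Slc39a11 lay just inside the rule with 3 arrays each, and 6 genes (Slc14a2, Slc18a1, Slc25a47, Slc27a5, Slc35e1 and Slc39a14) lay just outside it with 2. The glucose carrier Slc2a1 and the cystine carrier Slc7a11 were detected on 1 array each and are not members. A member detected in few groups could enter through a group where it was high, so counts of called members describe these 208 genes and not the family as a whole.

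The arrays held total RNA of whole lung from Lewis, Fisher and Brown Norway rats, 3 inbred strains, taken at postnatal days 1, 7 and 14 (PN1, PN7 and PN14). The rats had been exposed in utero to saline, the control, or to ovalbumin, an egg white protein used as a model allergen. The 18 groups of strain, age and exposure hold 4 arrays each, except Fisher PN7 saline with 3. No group is untreated, and the labels name neither animal, litter nor sex, so p-values measure the spread between these samples, which may be technical.

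Carriers work in several ways. Facilitators let a solute run down its gradient, exchangers swap one solute for another, and cotransporters use the sodium or proton gradient that pumps maintain. Some are built of a heavy and a light chain: Slc3a1 and Slc3a2 are heavy chains that bring light chains such as Slc7a9, Slc7a5 and Slc7a7 to the membrane. In lung, carriers feed surfactant synthesis, clear transmitters and prostaglandins from the blood, and handle iron, zinc and other metals, while the Slc25 family serves the inner membrane of mitochondria. The name also covers genes that carry nothing: Slc4a1ap and Slc7a6os were named after a neighbour or binding partner and are members only by name.

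The promoters of 4 carriers are shown because these had the largest summed change in the exposure comparisons described further on, with opposite sign in Brown Norway PN1 and Lewis PN7. Each is a RefSeq sequence of 300 bases around the gene's start in the rat assembly GRCr8, 5′ to 3′ on the gene's strand. Capitals mark a match, on either strand, to a motif searched for. The GC box was searched as GGGCGG. The CCAAT box has the letters of its name, and the TATA box was searched as TATAAA. The core of the glucocorticoid receptor element was searched as AGAACA. Slc6a6, the taurine carrier, lies on the forward strand at chr4:125752252-125752551, and Slco1a5, an organic anion carrier, on the reverse strand at chr4:176963763-176964062. Slc27a6, a fatty acid carrier with acyl-CoA synthetase activity, lies on the forward strand at chr18:54238797-54239096, and Slc38a5, a glutamine and neutral amino acid carrier, on the reverse strand at chrX:16894421-16894720.
Slc6a6: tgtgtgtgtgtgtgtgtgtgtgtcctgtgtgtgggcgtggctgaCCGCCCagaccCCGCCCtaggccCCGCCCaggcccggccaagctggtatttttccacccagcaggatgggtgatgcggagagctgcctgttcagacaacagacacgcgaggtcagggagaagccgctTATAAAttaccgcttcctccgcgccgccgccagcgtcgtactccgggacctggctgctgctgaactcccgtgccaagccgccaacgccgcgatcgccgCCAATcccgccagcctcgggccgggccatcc
Slco1a5: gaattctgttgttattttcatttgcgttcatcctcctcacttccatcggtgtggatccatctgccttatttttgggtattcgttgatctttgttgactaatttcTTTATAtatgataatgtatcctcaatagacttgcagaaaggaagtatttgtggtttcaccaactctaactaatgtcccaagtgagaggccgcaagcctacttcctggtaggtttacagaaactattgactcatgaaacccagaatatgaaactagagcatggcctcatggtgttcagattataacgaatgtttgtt
Slc27a6: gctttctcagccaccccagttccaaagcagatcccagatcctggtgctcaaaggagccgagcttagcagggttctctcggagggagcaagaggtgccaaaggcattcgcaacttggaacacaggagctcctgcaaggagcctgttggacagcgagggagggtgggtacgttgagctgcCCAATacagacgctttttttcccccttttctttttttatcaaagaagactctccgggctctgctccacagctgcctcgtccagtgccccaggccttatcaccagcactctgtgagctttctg
Slc38a5: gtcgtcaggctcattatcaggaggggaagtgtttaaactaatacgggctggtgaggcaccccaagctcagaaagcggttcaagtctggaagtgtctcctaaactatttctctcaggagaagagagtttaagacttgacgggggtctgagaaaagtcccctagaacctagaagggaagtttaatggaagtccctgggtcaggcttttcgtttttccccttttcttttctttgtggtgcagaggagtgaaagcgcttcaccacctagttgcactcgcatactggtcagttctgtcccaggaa
The Slc6a6 window holds 3 GC boxes on the opposite strand, 1 TATA box and 1 CCAAT box. The Slco1a5 window holds 1 TATA box on the opposite strand, the Slc27a6 window 1 CCAAT box, and the Slc38a5 window none of the letters searched. A promoter was found for 169 of the 208 members. A GC box occurred in 62.7% of these against 33.1% of all 33469 promoters, which include genes of every kind, a CCAAT box in 39.6% against 37.5%, a TATA box in 6.51% against 14.2% and the receptor element in 13.6% against 20.7%. Among the 34 members with a promoter that changed in opposite directions, the shares were 61.8%, 35.3%, 14.7% and 14.7%. These are matches of letters, not sites.

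Levels are given as background-corrected, quantile-normalised log2 intensity of a gene's probe, and differences as log2 differences with their standard errors from 1 limma fit over all arrays. A gene was called at a Benjamini-Hochberg adjusted p under 0.05 over 14019 probes. Levels are not compared between probes. Per array 10128 to 12437 probes were detected. Markers of type 2 cells (5 measured), club cells (3) and endothelium (4) were detected in every group, and 4 or 5 of the 5 of type 1 cells. Whole lung mixes these cells, so fewer cells of a type and less RNA per cell cannot be told apart. Liver markers (6 measured) summed to 28701 intensity units on 1 array of Fisher PN1 saline and to 13150 on 1 of Lewis PN7 saline. The bile acid carrier Slc10a1, a gene of hepatocytes, read 8.07 on Fisher PN1 saline a and 6.95 on Lewis PN7 saline d against a saline median of 5.10 at PN1. These arrays, Lewis PN1 ovalbumin a and Fisher PN7 saline c are called the 4 arrays in doubt. Values without them are given beside some of the results below whose call they change. Of 260 named results past the test, 21 lost their call without these arrays.

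The first question was how carriers change in the lung of the saline groups over the first postnatal week, averaged over the strains (12 saline arrays at PN1, 11 at PN7). The serotonin carrier Slc6a4 rose by 2.33-fold. Slc16a11, of the monocarboxylate carrier family, also rose, from a level not above background on 11 of 12 arrays. The taurine carrier Slc6a6 and the zinc and manganese importer Slc39a8 had the largest falls that ran the same way in all 3 strains, at 2.44-fold and 2.30-fold. In all, 97 members passed the test, 50 higher and 47 lower at PN7. That is 46.6% of the members, beside 47% of all probes, of which 24.3% were higher and 22.7% lower, and the median difference was 0.02 for both members and all probes. From PN7 to PN14, 70 members were called, 28 higher and 42 lower, or 33.7% beside 45% of all probes (22% higher, 23% lower). Over the whole span from PN1 to PN14, 77 were called, 31 higher and 46 lower, or 37% beside 35.2% (17.2% higher, 18% lower). These 3 comparisons share arrays and are given side by side. The counts of each role class in what follows stand beside these shares of all probes.

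Saline arrays of PN1 and PN7 share no slide, nor do those of PN7 and PN14. With slide as a fixed term, 54, 46 and 42 members were called in the 3 comparisons in place of 97, 70 and 77, beside 26.1%, 25% and 16.4% of all probes. Within slide 1, which holds 2 Lewis arrays of PN1 and of PN14, 45 members were called between these ages, against 40 for Lewis in the whole fit. No share of all probes is given, here or below, for fits within single slides or without single arrays. Those counts therefore say nothing about carriers in particular. Age-dependent markers moved at the same time, and their part in these results was not tested. Neutrophil markers fell in 5 of 5 between PN1 and PN7, with summed levels over saline groups of 3282 to 8110 at PN1, 971 to 4214 at PN7 and 1135 to 3196 at PN14, where 1 or 2 of the 5 were not detected on any array of a group. Proliferation markers rose in 3 of 3 and fell again in 3 of 3, at 756 to 3888, 1811 to 4753 and 922 to 1729. Brown fat and adipocyte markers (4) rose in 3 by PN7 and in 4 by PN14, at 701 to 2000, 1230 to 6958 and 891 to 22494, with up to 2 not detected on any array of a group at PN1. From PN7 to PN14, liver markers fell in 3 of 6, heart and skeletal muscle markers in 3 of 8 and type 2 markers in 2 of 5. Rises were called in 1 of 5 type 2 markers (Sftpa1, 0.28), 4 of 5 type 1 markers and 1 of 4 endothelium markers. Their sums at PN7 and PN14 were up to 13150 and up to 518 for liver, 14777 to 43297 and 7229 to 47438 for muscle, 60899 to 127230 and 67123 to 80372 for type 2, and 37649 to 58024 and 43268 to 70962 for type 1. The liver markers not detected on any array of a group numbered 0 to 3 of 6 at PN7 and 3 to 6 at PN14. Macrophage markers (3) rose in 2 and fell in 1 by PN7, at 663 to 1220 and 569 to 1078.

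Among amine and related carriers (10 members), 3 rose and 2 fell by PN7. Slc6a4 takes serotonin up from the blood in lung endothelium. Its levels in saline arrays were 6.90, 7.84 and 9.10 (lowest, median, highest) at PN1, 8.22, 9.11 and 10.17 at PN7, and 8.41, 9.26 and 9.64 at PN14. The Fisher arrays were the high ones at PN1, so the age ranges overlap. The rise to PN7 was 1.22 ± 0.11 (adjusted p = 3.50e-13), made of 0.99 for Lewis, 0.49 for Fisher and 2.18 for Brown Norway. The norepinephrine carrier Slc6a2 rose by 1.15 ± 0.15 from PN1 to PN14 (adjusted p = 9.30e-09), but with slide as a fixed term the difference was 0.68 (adjusted p = 0.0826). Slc6a6 fell and came back: its levels were 7.18, 8.04 and 9.82 at PN1, 6.06, 7.03 and 7.83 at PN7, and 7.58, 7.94 and 8.44 at PN14. The PN7 arrays were the low ones, with overlap on either side. The fall was -1.28 ± 0.15 (adjusted p = 3.14e-10) and the later rise 1.02 ± 0.15 (adjusted p = 1.32e-07), which became 0.62 with slide as a fixed term (adjusted p = 0.0959).

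**Figure D1:**
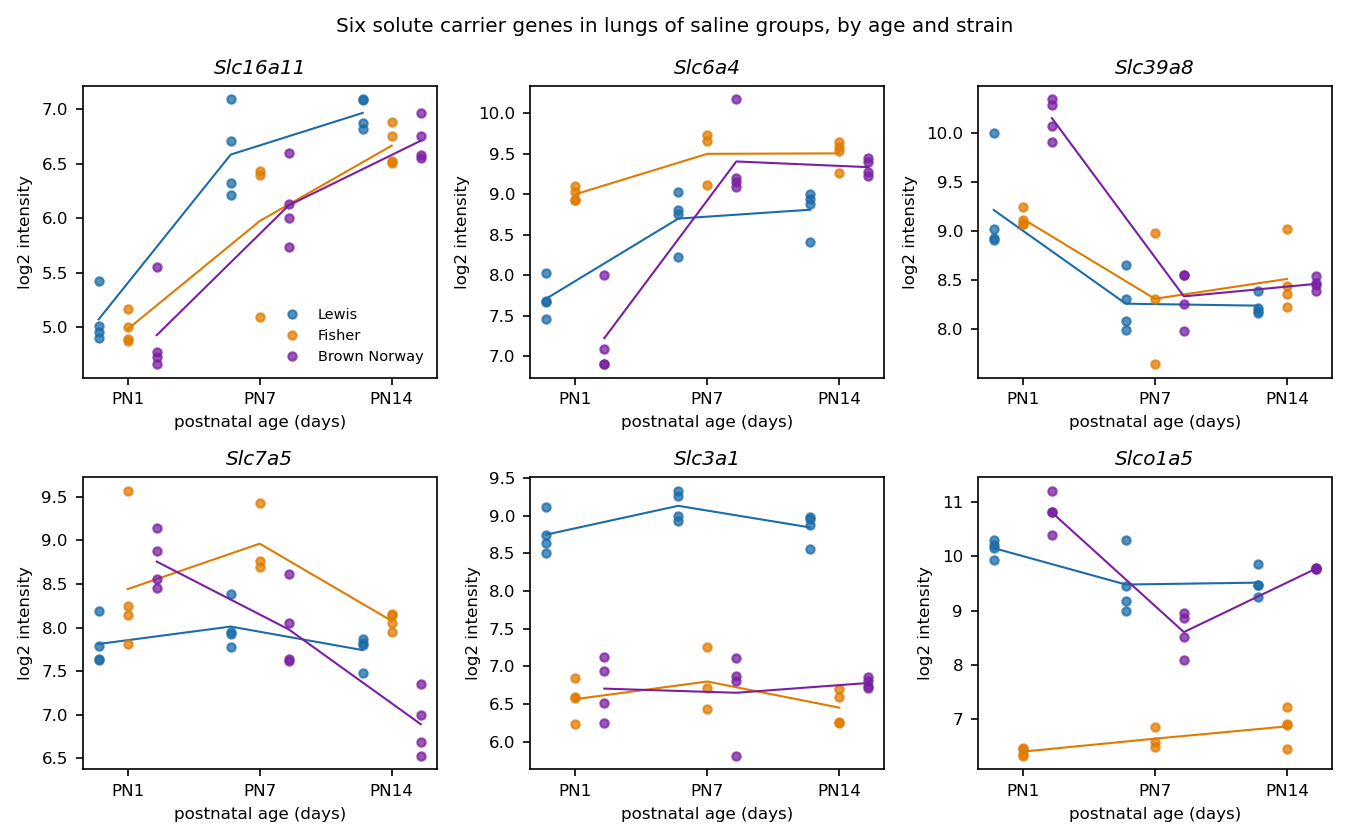
Log2 levels of 6 solute carrier genes in each saline array (points) against postnatal age in days, by strain, with lines joining the group means. Slc16a11 rises in every strain, Slc6a4 and Slc7a5 differ by strain in their course, Slc39a8 is highest at PN1, Slc3a1 is high in Lewis alone and Slco1a5 is low in Fisher alone.

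Amino acid and peptide carriers, the largest class with 37 members, were called lower more often than higher over the whole span, with 12 against 3 from PN1 to PN14, beside 18% and 17.2% of all probes. Slc38a1, a glutamine carrier, read 8.27, 8.58 and 9.49 at PN1, 7.96, 8.45 and 9.92 at PN7, and 7.55, 7.89 and 8.07 at PN14. Every PN14 array lay below every PN1 array, and the difference was -0.94 ± 0.12 (adjusted p = 2.11e-09). The leucine carrier Slc7a5 fell by 0.76 ± 0.15 over the same span (adjusted p = 1.91e-05), with -1.86 in Brown Norway, -0.36 in Fisher and -0.07 in Lewis. Slc15a3, a peptide and histidine carrier of lysosomes, moved the other way. Its levels were 6.88, 7.35 and 7.72 at PN1, 7.54, 8.12 and 8.51 at PN7, and 7.94, 8.39 and 8.66 at PN14. The PN1 and PN14 arrays did not overlap, and the rise was 1.04 ± 0.10 (adjusted p = 5.04e-13). Slc6a14, a carrier of neutral and cationic amino acids in airway epithelium, was low at PN7 alone. It read 9.38, 10.01 and 10.34 at PN1, 8.20, 9.35 and 9.78 at PN7, and 9.61, 10.07 and 10.49 at PN14. It fell by 0.80 ± 0.12 (adjusted p = 7.66e-08) and rose by 0.98 ± 0.12 (adjusted p = 1.06e-09) in the fit over all strains, and in single strains the fall ran from -0.73 in Brown Norway to -0.87 in Lewis. The glutamate carrier Slc1a1 followed the same course at a smaller size, -0.51 ± 0.07 and then 0.36 ± 0.07.

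Of the 8 monocarboxylate and dicarboxylate carriers, 3 rose and 2 fell by PN7. Slc16a11 was close to background at birth: it was detected on 1 of 12 saline arrays at PN1, on 10 of 11 at PN7 and on 12 of 12 at PN14. Its levels were 4.66, 4.93 and 5.55, then 5.09, 6.32 and 7.09, then 6.51, 6.78 and 7.09. All PN14 arrays lay above all PN1 arrays, with a fitted rise of 1.79 ± 0.13 (adjusted p = 2.53e-17) that starts from a level mostly not above background. Slc16a10, which carries aromatic amino acids, peaked at PN7 with 6.17, 7.12 and 8.10, then 7.51, 8.12 and 9.24, then 6.59, 7.29 and 7.58. The rise was 1.11 ± 0.14 (adjusted p = 7.38e-09) and the fall -1.04 ± 0.14 (adjusted p = 3.90e-08). The lactate carrier Slc16a1 differed by -0.17 ± 0.10 between PN1 and PN7 (adjusted p = 0.162).

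Metal carriers (24 members) were called lower in 7 and higher in 4 by PN7. Slc39a8 read 8.91, 9.19 and 10.35 at PN1, 7.64, 8.31 and 8.98 at PN7 and 8.16, 8.39 and 9.02 at PN14. The PN1 arrays were the high ones, with slight overlap. Its fall by PN7 was -1.20 ± 0.13 (adjusted p = 2.60e-11), and the difference of PN14 from PN1 was -1.10 ± 0.12 (adjusted p = 7.10e-11). The zinc importer Slc39a4 fell by 0.92 ± 0.16 from PN1 to PN14 (adjusted p = 2.07e-06). The copper importer Slc31a1 fell by 0.52 ± 0.07 (adjusted p = 1.21e-08), with -1.05 in Brown Norway. The iron exporter Slc40a1 fell by 0.53 ± 0.11 by PN7 (adjusted p = 6.89e-05), but the strains differed: -0.38 in Lewis, 0.26 in Fisher and -1.48 in Brown Norway, and the call was lost with slide as a fixed term.

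Nucleoside and nucleotide sugar carriers (22 members) were called higher in 11 and lower in 3 by PN7, beside 24.3% and 22.7% of all probes, with a median difference of 0.16. The equilibrative nucleoside carriers Slc29a1 and Slc29a3 were among them: Slc29a3 rose by 0.60 ± 0.08 by PN7 (adjusted p = 7.52e-09). Slc29a1 read 10.72, 10.95 and 11.32 at PN1 and 11.38, 11.61 and 11.78 at PN14. These ranges did not overlap, and the rise was 0.66 ± 0.09 (adjusted p = 4.81e-09). Slc35g2 rose by 0.92 ± 0.11 by PN7 and by 1.34 ± 0.11 by PN14 (adjusted p = 2.15e-09 and 1.63e-15), from 5.71 to 6.37 at PN1 up to 6.93 to 7.76 at PN14, without overlap. Slc35f5 and Slc25a40, a mitochondrial carrier, were lowest at PN7, with -0.72 ± 0.08 and -0.71 ± 0.17 against PN1.

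Lipid, choline, vitamin and related carriers (19 members) had 8 called lower and 0 higher from PN7 to PN14, beside 23% and 22% of all probes. At an unadjusted p under 0.05 the members as a whole had 94 in this comparison, a count given without a share of all probes. Slc27a3, a fatty acid carrier of the acyl-CoA synthetase family, was detected on 9 of 12 saline arrays at PN1, rose by 1.00 ± 0.13 by PN7 (adjusted p = 2.66e-09) and fell by 0.53 ± 0.13 after it. Its relative Slc27a6 fell by 0.89 ± 0.16 from PN7 to PN14 (adjusted p = 5.43e-06), but with slide as a fixed term by 0.27 (adjusted p = 0.513). The choline and thiamine pyrophosphate carrier Slc44a4 read 8.32, 8.65 and 8.89 at PN1 and 7.69, 7.93 and 8.21 at PN14, without overlap, and fell by 0.71 ± 0.10 (adjusted p = 1.21e-08). Slc33a1, which carries acetyl-CoA into the endoplasmic reticulum, fell by 0.69 ± 0.07 by PN7 (adjusted p = 2.39e-11).

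Mitochondrial carriers (29 members) were called in both directions at PN7, 6 higher and 8 lower. The ADP and ATP exchanger Slc25a4 stood at 13.28 and 13.22 on average at PN1 and PN7 (adjusted p = 0.497). The citrate carrier Slc25a1 rose by 0.59 ± 0.11 (adjusted p = 6.88e-06). The glutathione carrier Slc25a39 rose by 0.64 ± 0.12 and fell by 0.82 ± 0.12, and band 3, Slc4a1, the anion exchanger of red cells, did the same at 0.70 ± 0.15 and -0.61 ± 0.15 (adjusted p at most 6.52e-04 for all 4 differences). Of 7 erythroid markers 4 rose and 1 fell from PN1 to PN7, and 6 fell from PN7 to PN14. Their summed level over saline groups was 1688 to 5353 at PN1, 1990 to 11335 at PN7 and 1394 to 4733 at PN14, where up to 3 of 7 were not detected on any array of a group. Their part in the changes of Slc25a39 and Slc4a1 was not tested. Both changes were largest in Fisher, where Slc25a39 rose by 1.47.

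Organic ion and drug carriers (19 members) were called higher in 6 and lower in 4 by PN7, and 5 and 3 by PN14. Slco3a1 rose by 1.23 ± 0.14 from PN1 to PN14 (adjusted p = 2.22e-10), from 5.55, 6.35 and 7.08 to 7.30, 7.64 and 8.04, without overlap. The carnitine carrier Slc22a5 rose by 0.75 ± 0.09 (adjusted p = 1.09e-10), from 8.66, 9.29 and 9.79 to 9.82, 9.99 and 10.39, also without overlap. The prostaglandin carrier Slco2a1, a gene of lung endothelium, differed by 0.09 ± 0.10 on average between PN1 and PN7 (adjusted p = 0.471). Among proton, bicarbonate and ion exchangers (20 members, 3 higher and 5 lower by PN7), the sodium bicarbonate cotransporter Slc4a4 fell by 0.65 ± 0.11 and rose again by 0.67 ± 0.11, while the potassium chloride cotransporter Slc12a4 rose by 0.49 ± 0.08. The remaining classes were small. Sugar and polyol carriers (9) had 1 called each way by PN7, phosphate carriers (5) had 2 higher and 1 lower, and the 4 carriers of urea and other solutes had 3 higher.

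How far the strains followed the same course was tested with an F test of strain by age in saline arrays, which called 86 members, 41.3% beside 37% of all probes. By strain, 57 members were called between PN1 and PN7 in Lewis, 66 in Fisher and 90 in Brown Norway, beside 28.9%, 27.9% and 39% of all probes. From PN7 to PN14 the counts were 16, 65 and 32, beside 11%, 36% and 20%. Over the whole span they were 40, 22 and 63, beside 17.5%, 15.1% and 31.2%. The 5 lowest p were those of Slc7a7, Slc66a3, Slc6a4, Slc39a4 and Slc66a2. Slc7a7, a light chain that exchanges cationic for neutral amino acids, averaged 11.23 in Brown Norway, 9.43 in Fisher and 9.75 in Lewis at PN1. At PN7 the order was 8.74, 9.54 and 9.12, and at PN14 the strains met at 9.01, 8.95 and 8.93. Brown Norway at PN1 was thus the high group (adjusted p of the F test 2.36e-07). Slc39a4 averaged 10.73, 9.63 and 10.45 at PN1 and 9.05, 10.54 and 9.30 at PN7 in the same order of strains (adjusted p = 1.17e-05). The Fisher PN7 mean rests on replicate c at 12.35, with 9.65 and 9.62 in the other arrays, and without the 4 arrays in doubt the adjusted p was 4.96e-05.

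Strain differences in saline arrays were asked next, averaged over the 3 ages. Brown Norway and Lewis differed in 51 members, 21 higher and 30 lower in Brown Norway, or 24.5% beside 23.4% of all probes (11.6% higher, 11.7% lower). Fisher and Lewis differed in 36, 24 higher and 12 lower in Fisher, or 17.3% beside 15.6% (7.97% higher, 7.67% lower). Brown Norway and Fisher differed in 73, 31 higher and 42 lower in Brown Norway, or 35.1% beside 32.2% (15.8% higher, 16.5% lower). With median scaling the split of the members became 18 and 55, and that of all probes 1517 and 2732 in place of 2211 and 2308. Between Fisher and Lewis all probes split into 1282 and 808 in place of 1118 and 1075. Within 1 age the counts were largest at PN1, with 57, 29 and 69 members (beside 26.6%, 17.9% and 30.9% of all probes), came to 32, 33 and 59 at PN7 (beside 16.6%, 17% and 29.2%), and were smallest at PN14, with 6, 9 and 9 (beside 5.66%, 3.89% and 6.41%). The 3 comparisons share arrays. On single slides, which hold 2 or more arrays of each strain at 1 age, the PN1 counts were 61, 32 and 61 within slide 1 and 14, 4 and 19 within slide 3.

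The largest strain differences lay in carriers of amino acids and organic anions. Each is a difference in the intensity of 1 probe, whose target sequence was not compared between the strains. Slc3a1 is the heavy chain of the cystine and dibasic amino acid carrier of kidney and gut. Its levels were 8.50, 8.94 and 9.33 in Lewis, 6.23, 6.59 and 7.25 in Fisher, and 5.81, 6.80 and 7.12 in Brown Norway. Every Lewis array lay above every array of the other strains. The differences from Lewis were -2.30 ± 0.12 in Fisher and -2.20 ± 0.12 in Brown Norway (adjusted p = 2.81e-24 and 6.65e-24), and were called within every slide where they could be fitted. Its light chain Slc7a9 ranked otherwise: it was detected on 10 of 11 Fisher arrays, 3 of 12 Lewis arrays and 1 of 12 Brown Norway arrays. Slc7a9 was called higher in Fisher than in Lewis (0.67 ± 0.13, adjusted p = 1.43e-04) and lower in Brown Norway than in Fisher (-0.85 ± 0.13, adjusted p = 7.45e-07), but most Lewis and Brown Norway arrays were not above background, which limits the size of these differences.

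Slco1a5 read 8.99, 9.67 and 10.31 in Lewis, 6.32, 6.48 and 7.23 in Fisher, and 8.08, 9.77 and 11.21 in Brown Norway. The Fisher arrays lay below all others, though the probe was detected on all 11 of them. Fisher was lower than Lewis by 8.48-fold, at -3.08 ± 0.16 (adjusted p = 2.19e-25), and Brown Norway higher than Fisher by 8.55-fold, at 3.10 ± 0.16 (adjusted p = 1.54e-25). Slco2b1, another organic anion carrier, read 7.48, 7.79 and 8.22 in Lewis, 7.72, 8.81 and 9.19 in Fisher and 8.08, 8.84 and 9.01 in Brown Norway. Lewis was the low strain, by 0.82 ± 0.09 against Fisher and 0.98 ± 0.09 against Brown Norway (adjusted p = 1.69e-10 and 1.01e-13). The organic cation carrier Slc22a3 was lower in Brown Norway than in Lewis and Fisher, at -0.74 ± 0.19 and -0.91 ± 0.20.

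Amine carriers differed by strain as well. Slc6a4 was higher in Fisher than in Lewis by 0.93 ± 0.11 (adjusted p = 1.24e-09). Its ranges were 8.93, 9.26 and 9.73 in Fisher, 7.46, 8.58 and 9.02 in Lewis and 6.90, 9.18 and 10.17 in Brown Norway, which spanned the other strains. Slc6a2 was higher in Brown Norway than in Fisher by 1.53 ± 0.16 (adjusted p = 4.70e-12), from 6.54, 7.62 and 8.70 against 5.51, 6.12 and 7.61, with overlap. In the other classes, Slc25a38, which brings glycine into mitochondria for heme synthesis, was higher in Brown Norway than in Fisher and Lewis by 0.81 ± 0.13 and 0.78 ± 0.13. The UDP-N-acetylglucosamine carrier Slc35a3 differed by -0.53 ± 0.08 in Fisher against Lewis and was higher in Brown Norway than in Fisher by 0.59 ± 0.08. The zinc carrier Slc39a2 was lower in Brown Norway than in Fisher, at -0.83 ± 0.10 (adjusted p = 2.22e-09). In the same comparison of Brown Norway with Fisher, 5 of 8 markers of heart and skeletal muscle and 3 of 3 of proliferation were lower in Brown Norway. The muscle markers summed to 9813 to 22422 in Brown Norway and 9409 to 47438 in Fisher, and the proliferation markers to 788 to 2957 and 947 to 3917. Endothelium markers (4) were higher in Brown Norway than in Lewis and than in Fisher in 3, with sums of 31140 to 41154 for Brown Norway, 17348 to 31761 for Lewis and 23349 to 39955 for Fisher. The part of these markers in the strain differences was not tested.

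**Figure D2:**
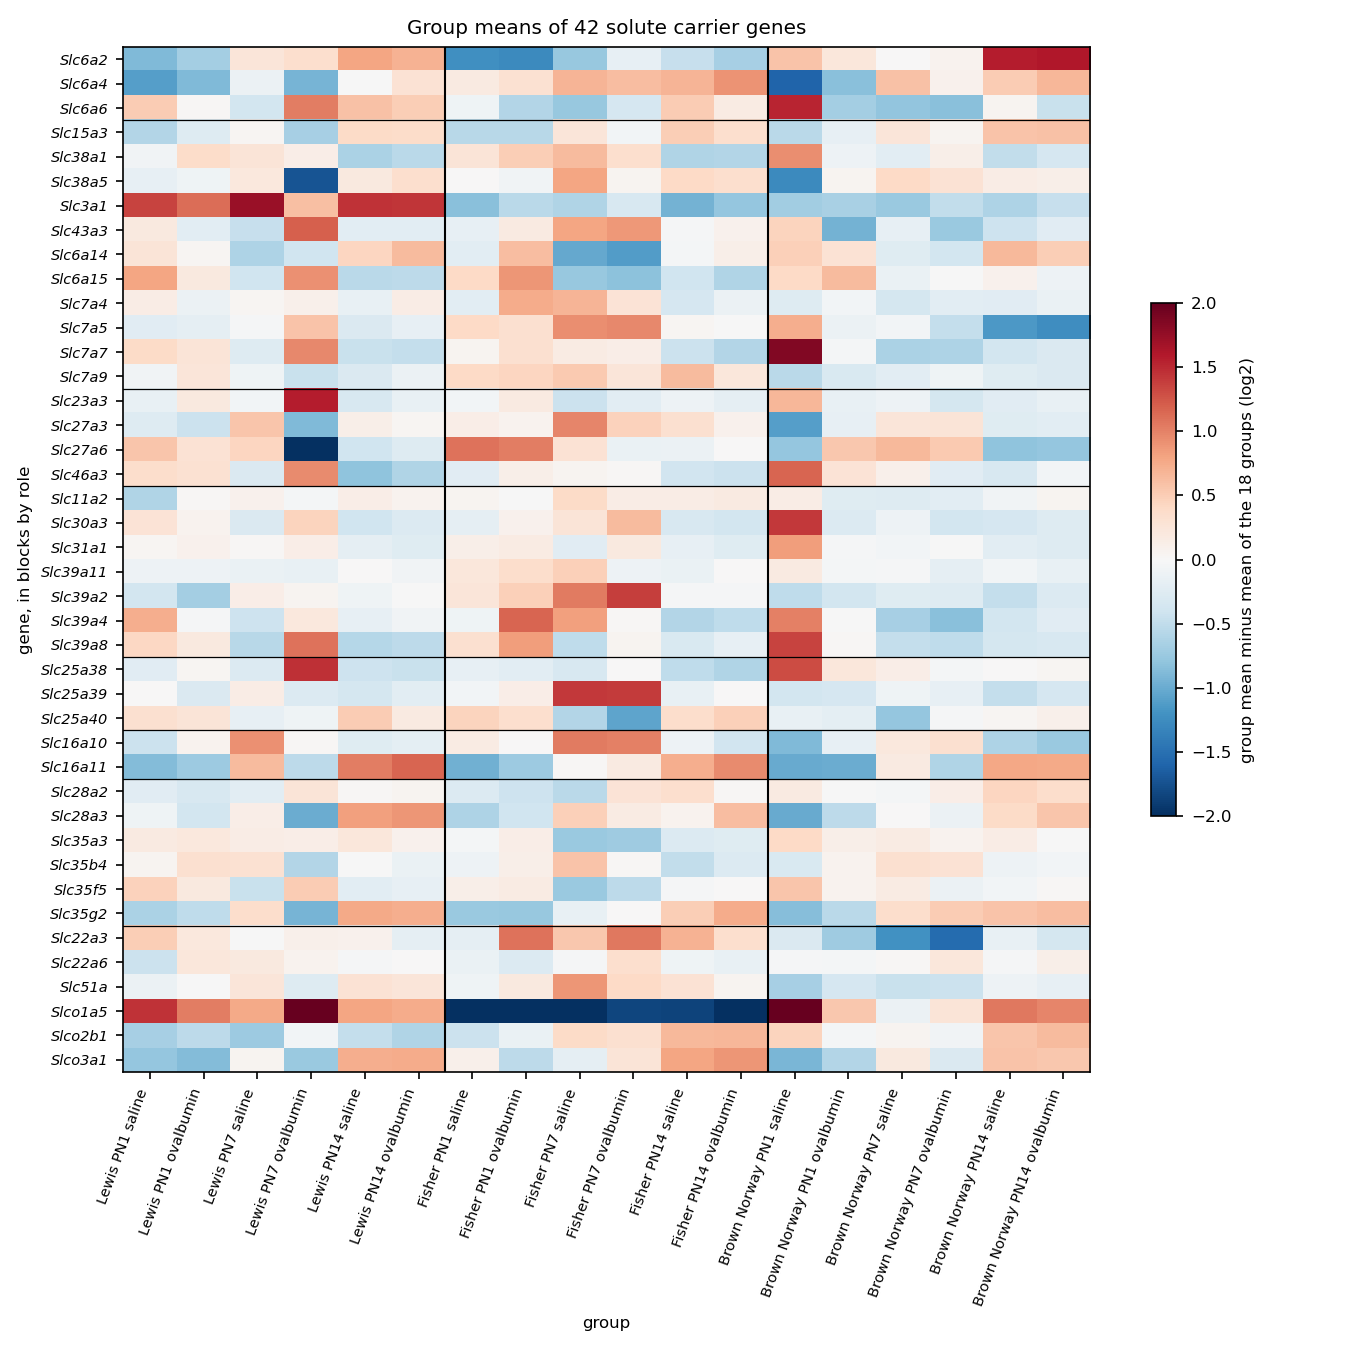
Mean log2 level of 42 solute carrier genes in each of the 18 groups, as the difference from the mean of all groups (red higher, blue lower), in blocks by role. The colours end at 2 on either side, which Slco1a5 and Slc27a6 exceed. Slco1a5 is low in all 6 Fisher groups, Slc3a1 is high in the Lewis groups, and the Brown Norway PN1 saline and Lewis PN7 ovalbumin columns stand apart.

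The effect of ovalbumin was tested separately for every strain and age, with 4 arrays against 4, or 4 against 3 in Fisher PN7. Many members were called in Brown Norway at PN1 and in Lewis at PN7, and few or none elsewhere. In Brown Norway PN1, 64 members passed the test, 20 higher and 44 lower after ovalbumin, or 30.8% beside 26.3% of all probes. The lower calls made up 21.2% of the members beside 12.6% of all probes, and the higher calls 9.62% beside 13.7%. With median scaling the members split into 16 higher and 47 lower, and all probes into 1435 and 2071 in place of 1921 and 1763. In Lewis PN7, 87 passed, 48 higher and 39 lower, or 41.8% beside 35.2% (18.3% higher, 16.9% lower). Median scaling turned this balance, to 38 higher and 44 lower among members and, among all probes, to 1738 and 2846 in place of 2562 and 2376. In Fisher PN1, 7 were called, all higher, beside 2.75% of all probes called and 1.46% called higher, in Fisher PN7 3 beside 2%, and in Lewis PN1 2 beside 0.171%. The limma fit called 0 members in Brown Norway PN7, beside 0.15% of all probes. At PN14 it called 0 in Lewis, Fisher and Brown Norway, beside 0, 0.0143% and 0.00713% of all probes. Members at an unadjusted p under 0.05 numbered 26 in Brown Norway PN7 and 3, 8 and 4 at PN14. No share of all probes at that unadjusted threshold is given, so these counts say nothing about carriers in particular. In these 4 comparisons no slide holds both exposures, so exposure is set apart from slide only through the arrays of other groups. With slide as a fixed term the 4 counts became 10 in Brown Norway PN7, beside 5.66% of all probes, and 16, 8 and 9 at PN14, beside 10.6%, 4.94% and 4.95%. In Brown Norway PN7, leaving out saline a or c gave 9 or 4.

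**Figure D3:**
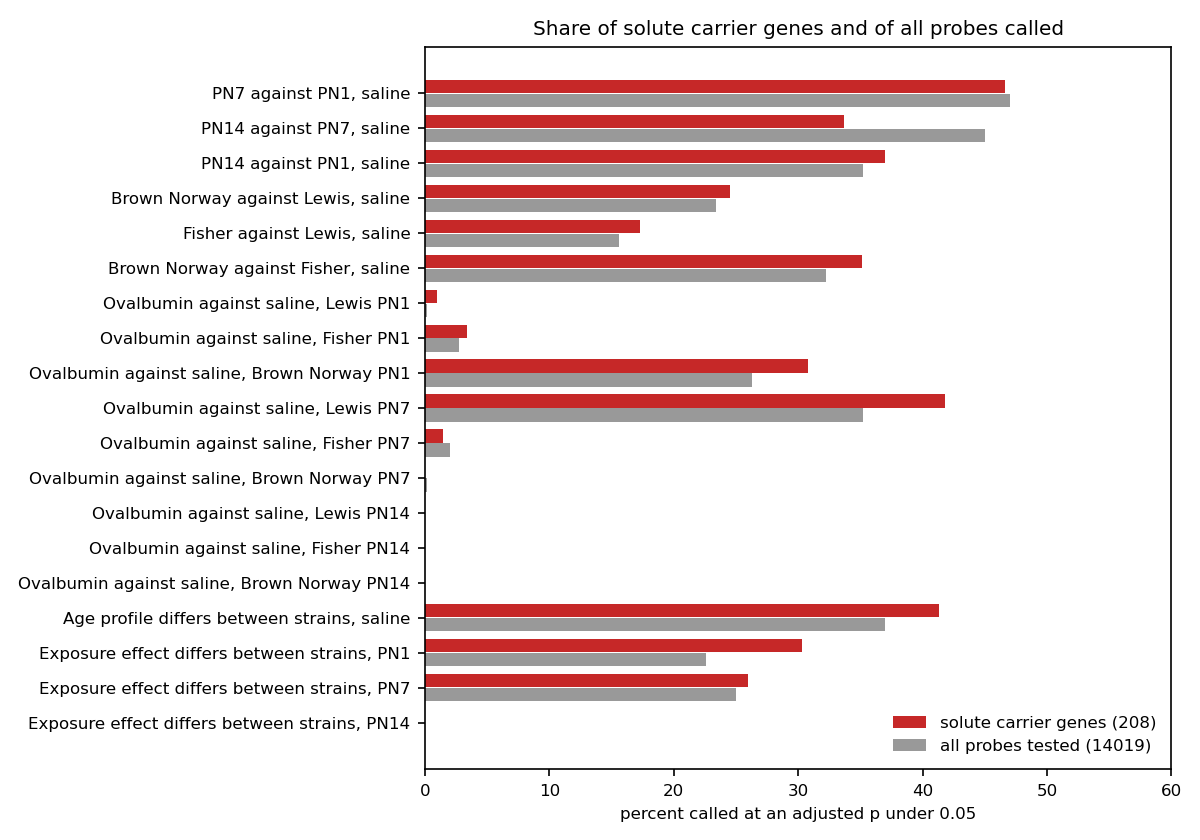
Percent of the 208 solute carrier genes (red) and of all 14019 probes (grey) past the test (adjusted p under 0.05) in the comparisons of age, strain and exposure and in the F tests. The carriers' share lies below that of all probes from PN7 to PN14 (33.7% against 45%). It lies above it by less in Brown Norway PN1 (30.8% against 26.3%) and Lewis PN7 (41.8% against 35.2%).

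In Brown Norway PN1 the falls were spread over amino acid carriers (12 of 37 lower, 1 higher), metal carriers (7 of 24 lower, 1 higher) and mitochondrial carriers (7 of 29 lower, 0 higher). Of all probes, 12.6% were called lower and 13.7% higher. Slc6a6 read 9.45, 8.04, 9.82 and 9.11 after saline (replicates a to d) and 6.59, 6.95, 6.93 and 7.12 after ovalbumin. All ovalbumin arrays were below all saline arrays, and the fall was 4.62-fold, at -2.21 ± 0.25 (adjusted p = 1.22e-09). Slc7a7 read 11.44, 10.72, 11.41 and 11.33 against 9.23, 9.38, 9.43 and 9.32. It too separated the exposures, at -1.89 ± 0.23 (adjusted p = 4.19e-09). Slco1a5 read 10.81, 10.40, 11.21 and 10.82 against 8.98, 9.19, 9.83 and 9.01, again without overlap, and fell by 1.55 ± 0.26 (adjusted p = 5.26e-06).

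Several metal carriers were lower too. Slc39a8 read 10.35, 9.91, 10.29 and 10.08 after saline and 8.71, 8.78, 9.06 and 8.82 after ovalbumin, a difference of -1.31 ± 0.21 (adjusted p = 2.85e-06). The iron exporter Slc40a1 (ferroportin) averaged 11.37 after saline and 10.21 after ovalbumin without overlap, a difference of -1.16 ± 0.19 (adjusted p = 2.17e-06). The vesicular zinc carrier Slc30a3 was detected on 4 of 4 saline arrays and on 0 of 4 ovalbumin arrays, so it was at least 1.90-fold lower (adjusted p = 6.86e-07). "At least" means here that the lowest signal among detected probes of each array stood in for the undetected one.

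The rises in Brown Norway PN1 were fewer and led by Slc27a6 and Slc38a5. Slc27a6 read 8.93, 10.48, 8.86 and 9.32 after saline and 10.95, 10.81, 10.39 and 10.73 after ovalbumin. Saline b overlapped the ovalbumin arrays, and the rise was 1.33 ± 0.27 (adjusted p = 9.54e-05). Slc38a5 read 10.84, 12.07, 10.43 and 11.02 against 12.43, 12.42, 12.25 and 12.53, without overlap, and rose by 1.32 ± 0.24 (adjusted p = 1.45e-05). Slc27a3 was detected on 1 of 4 saline arrays and on 4 of 4 ovalbumin arrays, so that its rise of 0.95 ± 0.21 (adjusted p = 4.08e-04) starts near background. Also higher was the monocarboxylate carrier family member Slc16a13, by 0.85 ± 0.20. Within slide 3, with 2 arrays of each exposure, 12 members were called, a count given without a share of all probes. The falls of Slc6a6, Slc7a7, Slco1a5 and Slc40a1 were still called there, at -1.98, -1.78, -1.52 and -1.02. The rises of Slc27a6 (1.18, adjusted p = 0.148), Slc38a5 (0.97, adjusted p = 0.088) and Slc27a3 (0.66, adjusted p = 0.0869) were not. Neutrophil markers were lower with ovalbumin in 2 of 5, with summed levels of 4202 to 6857 after saline and 2385 to 3556 after ovalbumin, and all 5 detected in both groups. Endothelium markers were lower in 2 of 4 and higher in 1, at 35407 to 39954 and 30731 to 34712, type 2 markers lower in 2 of 5 and higher in 1, at 89102 to 96708 and 84740 to 100672, and type 1 markers 1 each way of 5, at 58765 to 75333 and 54872 to 60063. The part of these markers in the result was not tested.

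In Lewis PN7, 12 of 37 amino acid carriers were higher and 4 lower, and 8 of 22 nucleoside and nucleotide sugar carriers were lower and 4 higher, beside the 18.3% higher and 16.9% lower among all probes. Slc27a6 read 10.81, 11.08, 10.25 and 10.30 after saline and 7.79, 8.22, 7.73 and 8.39 after ovalbumin. The ovalbumin arrays were all far below, and the fall was 5.96-fold, at -2.57 ± 0.27 (adjusted p = 1.82e-11). Slc38a5 read 12.54, 12.70, 12.81 and 12.24 against 10.61, 11.31, 9.73 and 10.89. Its fall was -1.94 ± 0.24 (adjusted p = 1.51e-09), again without overlap. Slc27a3 was detected on no ovalbumin array and on 4 of 4 saline arrays, and was at least 2.23-fold lower (adjusted p = 2.08e-07). Slc35g2 fell by 1.29 ± 0.19 (adjusted p = 2.51e-07), and Slc6a4 by 0.81 ± 0.19 (adjusted p = 4.73e-04).

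Rises in Lewis PN7 took in carriers of several classes. Slco1a5 read 9.45, 9.18, 8.99 and 10.30 after saline and 11.44, 10.66, 12.28 and 11.05 after ovalbumin, a rise of 1.87 ± 0.26 (adjusted p = 5.01e-08). Slc25a38 read 8.01, 7.95, 7.81 and 8.51 against 9.86, 9.34, 10.29 and 9.76, a rise of 1.74 ± 0.22 (adjusted p = 4.78e-09). Both separated the exposures without overlap. Slc39a8 read 7.99, 8.31, 8.08 and 8.66 against 10.01, 9.52, 10.33 and 9.71 (1.63 ± 0.21, adjusted p = 1.12e-08). Slc43a3, a nucleobase carrier placed here with the amino acid carriers of its family, read 7.76, 7.37, 8.13 and 7.14 against 9.43, 8.61, 9.91 and 9.03 (1.64 ± 0.20, adjusted p = 2.52e-09). In these the ovalbumin arrays were again all higher. Slc23a3 of the ascorbate carrier family read 5.83, 5.76, 5.75 and 5.86 against 7.36, 7.19, 7.70 and 7.43 (1.62 ± 0.16, adjusted p = 5.57e-12). Slco2a1 rose by 0.71 ± 0.17 (adjusted p = 5.78e-04). In the same comparison 2 of 4 endothelium markers rose, with sums of 25429 to 27149 after saline and 31647 to 35326 after ovalbumin. Also higher were 2 of 5 type 2 markers (73929 to 101259 and 90251 to 113705), 1 of 5 type 1 markers (45149 to 54157 and 52784 to 65436) and 1 of 3 club cell markers. The part of these markers was not tested.

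Slc11a1, which pumps metals out of the phagosome in macrophages and neutrophils, read 6.01, 6.44, 6.81 and 7.13 after saline and 8.28, 7.86, 8.42 and 8.13 after ovalbumin in Lewis PN7. It rose by 1.57 ± 0.20 (adjusted p = 7.76e-09), without overlap. Beside it, 4 of 5 neutrophil markers rose, with summed levels of 1461 to 3985 after saline and 3383 to 5874 after ovalbumin, and 1 of 3 macrophage markers rose, at 855 to 1078 and 1411 to 1780. Proliferation markers fell in 3 of 3, from 2412 to 4753 down to 533 to 766. All neutrophil and proliferation markers were detected in both groups. Their part in these results was not tested. In Brown Norway PN1, Slc11a1 differed by 0.17 ± 0.20 (adjusted p = 0.611). The exposures of Lewis PN7 share slides 2 and 4, with 2 arrays of each on either. Within them 43 and 29 members were called. The call of Slc40a1 (0.53 ± 0.19, adjusted p = 0.0209) was lost without ovalbumin c (0.38, adjusted p = 0.145) and with median scaling (0.36, adjusted p = 0.139). Slc25a4, at -0.29 ± 0.12, lay near the threshold (adjusted p = 0.0442).

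The exposure comparisons in Brown Norway PN1 and Lewis PN7 share no array, so their calls can be set against each other. Of the 64 and 87 members called, 41 were called in both, 64.1% of the first list and 47.1% of the second. For all probes these shares were 58.6% and 43.7%. Of these 41, 40 changed in opposite directions: 27 were lower in Brown Norway PN1 and higher in Lewis PN7, and 13 the reverse. The exception was Slc36a4, an amino acid carrier, lower in both (-0.46 and -0.54). All probes showed the same thing, with 2058 of 2159 shared calls opposite (95.3%, against 97.6% of the members), so this is not particular to carriers.

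Group means show where the levels lay. Slc6a6 averaged 9.10 in Brown Norway PN1 saline and 6.90 after ovalbumin, beside 6.79 in Brown Norway PN7 saline. In Lewis it averaged 8.08 in PN1 saline and 7.22 in PN7 saline, and 8.61 in PN7 ovalbumin. The exposed group of each strain thus lay nearer to the saline mean of the other age than to its own, but in Lewis it lay above both saline means. Slc27a6 behaved alike in Brown Norway, at 9.40 in PN1 saline, 10.72 after ovalbumin and 10.82 in PN7 saline. In Lewis its 8.03 in PN7 ovalbumin also lay outside both saline means, below them (10.74 at PN1, 10.61 at PN7). Slco1a5 in Lewis PN7 ovalbumin, at 11.35, was likewise above both saline means (10.16 and 9.48).

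**Figure D4:**
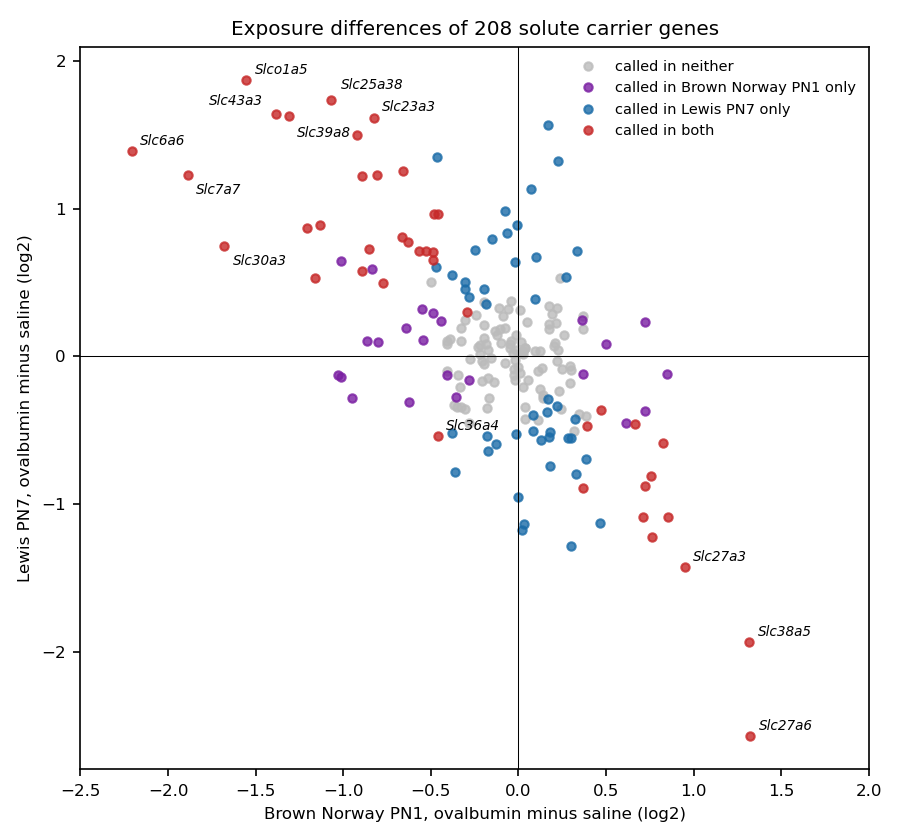
Log2 difference between ovalbumin and saline in Brown Norway PN1 (x axis) and Lewis PN7 (y axis) for the 208 solute carrier genes, coloured by where the adjusted p was under 0.05. Of the 41 genes called in both, 40 lie to the upper left or lower right of the zero lines, and Slc36a4 is the exception.

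The other exposure comparisons gave few members. In Fisher PN1 the zinc importer Slc39a4 read 9.57, 9.70, 9.43 and 9.81 after saline and 10.34, 11.19, 10.89 and 11.14 after ovalbumin, a rise of 1.26 ± 0.27 (adjusted p = 0.00269). Slc7a4 read 6.18, 6.36, 6.23 and 6.54 against 7.49, 7.19, 7.22 and 7.28 (0.97 ± 0.19, adjusted p = 8.95e-04), and Slc6a14 rose by 0.84 ± 0.20 (adjusted p = 0.00717). None of the 3 overlapped between exposures. Slc22a3 rose by 1.26 ± 0.33 (adjusted p = 0.0198), but the call was lost without saline a, saline c or ovalbumin b (adjusted p = 0.0565, 0.0512 and 0.107). The count of 7 became 3 without saline a or ovalbumin b and 4 without saline c or d. Proliferation markers fell in 2 of 3 in the same comparison, from 2745 to 3888 down to 664 to 1145, and their part was not tested. Within slide 3, where 6 members were called, Slc39a4 had a difference of 1.12 (adjusted p = 0.0578).

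In Fisher PN7 the concentrative nucleoside carrier Slc28a2 read 7.85, 7.69 and 7.65 after saline and 8.18, 8.15, 8.55 and 9.23 after ovalbumin. The groups did not overlap, and the rise was 0.80 ± 0.17 (adjusted p = 0.0114), but without ovalbumin d it was 0.56 (adjusted p = 0.133). Slc35b4, a nucleotide sugar carrier, fell by 0.55 ± 0.15 (adjusted p = 0.0401), a call lost without the 4 arrays in doubt (-0.46, adjusted p = 0.109) and without saline a or c or ovalbumin c or d (-0.40 to -0.58). The third, Slc39a11, was not well above background in either group, and was not called without the 4 arrays in doubt (adjusted p = 0.166). With the replicate letter as a block, which may pair these arrays, 0 were called, and leaving out 1 array gave 0 (ovalbumin d) to 8 (ovalbumin a), with 5 without saline b or ovalbumin b. In Lewis PN1 the iron importer Slc11a2 read 10.19, 10.07, 9.62 and 9.63 against 11.27, 10.24, 10.31 and 10.21 (0.63 ± 0.15, adjusted p = 0.0463). The organic anion carrier Slc22a6 was detected on 0 of 4 saline and 3 of 4 ovalbumin arrays, at least 1.09-fold higher (adjusted p = 0.0223). Neither was called without saline c, saline d or ovalbumin a, or without the 4 arrays in doubt (Slc11a2 0.37, adjusted p = 0.373; Slc22a6 adjusted p = 0.0753).

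Whether the exposure effect differed between strains was tested directly with F tests. At PN1, 63 members were called, 30.3% beside 22.6% of all probes, at PN7 54, 26% beside 25%, and at PN14 0 beside 0%. An unadjusted p under 0.05 was reached by 3 members at PN14, a count given without a share of all probes. At PN1 the lowest p was that of Slc7a7, with effects of -0.12 in Lewis, 0.26 in Fisher and -1.89 in Brown Norway (adjusted p = 2.22e-06). Slc39a4 differed by 1.26 in Fisher, -1.01 in Brown Norway and -0.75 in Lewis, where the difference itself was not called (adjusted p = 0.205), and the adjusted p of the F test was 1.11e-05. At PN7 the lowest p was that of Slc23a3, with 1.62 in Lewis, 0.22 in Fisher and -0.25 in Brown Norway (adjusted p = 2.51e-08). Slc35f5 followed the same pattern at 0.96, 0.22 and -0.29 (adjusted p = 1.76e-06). Fitted on the PN7 arrays alone, the count of 54 became 30.

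Genes that work with carriers were followed in a list of 30 partners, ion pumps and regulators, of which 24 were measured. By PN7, 4 rose and 7 fell, from PN7 to PN14 8 rose and 3 fell, in Brown Norway PN1 4 rose and 9 fell after ovalbumin, and in Lewis PN7 9 rose and 6 fell. The shares of all probes called in these 4 comparisons were 47%, 45%, 26.3% and 35.2%. Atp1b1, a subunit of the sodium pump that sets up the gradient for cotransport, fell by 1.47 from PN1 to PN7 and by 1.36 with ovalbumin in Brown Norway PN1, and rose by 1.88 in Lewis PN7. The carbonic anhydrase Car4 of lung capillaries rose by 1.27 and 1.42 in the former comparisons and fell by 1.02 in Lewis PN7. Of 8 amino acid carriers known as targets of the stress factor ATF4, 4 were lower and 0 higher in Brown Norway PN1 (Slc6a9, Slc7a5, Slc38a2 and Slc43a1). In Lewis PN7, 3 were higher and 0 lower (Slc6a9, Slc38a2 and Slc43a1). Among all probes 12.6% were lower in the former and 18.3% higher in the latter. The glutamine carrier Slc38a2 changed by -0.66 ± 0.14 and 0.81 ± 0.14 in these (adjusted p = 1.60e-04 and 3.42e-06), and the glycine carrier Slc6a9 by -1.14 and 0.89. From PN1 to PN14, 4 of the 8 were lower and 0 higher, beside 18% and 17.2% of all probes.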

How the data were processed

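Raw bead intensity and detection p-values came from the non-normalized table the authors deposited, and the authors' deposited log2 values, normalized by the authors, served as an alternative. The submitters' processing notes name lumi; the version and steps are not given in the sources used here. The deposited log2 values lie within 0.0301 of quantile-normalised log2 raw intensity. Intensities were background-corrected and quantile-normalised with neqc (limma 3.58.1 in R 4.3.3, offset 16). Probes with detection p under 0.01 on at least 3 arrays were kept (14019 of 22523), and 1 model of 18 group means was fitted with limma (empirical Bayes with a trend, Benjamini-Hochberg adjustment over all kept probes). The fit was tested on simulated data. Where a gene had several probes (Slc25a30, with 2), the probes were kept apart. The number of arrays limits the precision. Another 142 columns (bead number and bead standard error) were not used.

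Genes named were, per comparison, those of largest called change with 1 direction across strains or ages (8 each way for age, 7 for strain, 4 for exposure), the 5 of lowest p in each F test, up to 3 of lowest p per role class, and a short fixed list. Slc36a4, Slc38a2, Slc6a9 and Slc43a1 were named after their values were seen. Members, roles and lists were chosen with earlier results of these data known. Replicate letters may pair arrays in Fisher PN7 alone, where deviations of same-lettered arrays correlated at 0.351, 0.433 and 0.340; nothing in the labels says that they do. Alternatives were the authors' values, median scaling, dropping the detection filter, a slide term (fixed, or a random block), fits within slides, only the groups compared, a replicate block, and leaving out single arrays or the 4 in doubt.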

Additional observations from a re-analysis of the deposited data

Results flagged for a closer look

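In 63 pairs of a gene and a group of 4 arrays, over 26 members, 6 had 1 array far from the other 3 (a gap above Dixon's 95% critical value), where chance gives about 1 in 20. Slc11a2 read 11.27 in Lewis PN1 ovalbumin a, with 10.21 to 10.31 in the others. Slc22a3 read 7.47 in Fisher PN1 saline b, with 7.12 to 7.16 in the others. Slc27a3 read 6.64 in Lewis PN7 saline d against 7.04 to 7.10, and Slc40a1 10.57 in Lewis PN7 saline c against 10.37 to 10.40. Slc6a4 read 7.60 in Brown Norway PN1 ovalbumin c against 8.07 to 8.14, and Slc7a7 10.72 in Brown Norway PN1 saline b against 11.33 to 11.44.

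Age courses that differed between strains by the F test were led by Slc7a7 (adjusted p = 2.36e-07), Slc66a3 (6.28e-06), Slc6a4 (7.26e-06), Slc39a4 (1.17e-05) and Slc66a2 (1.33e-05). Slc66a3 averaged 8.53 in Brown Norway, 9.95 in Fisher and 9.17 in Lewis at PN1. Exposure effects that differed between strains at PN1 were led by Slc7a7 (adjusted p = 2.22e-06), Slc39a4 (1.11e-05), Slc31a1 (3.17e-05), Slc39a8 (3.70e-05) and Slc43a3 (4.38e-05). Slc31a1 fell by 0.86 with ovalbumin in Brown Norway and differed by 0.04 in Lewis and 0.05 in Fisher. At PN7 they were led by Slc23a3 (adjusted p = 2.51e-08), Slc43a3 (1.13e-07), Slc27a6 (1.36e-06), Slc35f5 (1.76e-06) and Slc25a38 (1.21e-05). Slc43a3 differed by 1.64 in Lewis, 0.08 in Fisher and -0.57 in Brown Norway at that age.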

How the results depend on the processing

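Of 260 named results past the test, none turned its sign under the alternatives named in the next sentence. The authors' values lost the call of 5, median scaling of 12, no detection filter of 9, only the groups compared of 15, slide as a random block of 3, a replicate block of 4, the fit without the 4 arrays in doubt of 21 and slide as a fixed term of 45. When single arrays were left out, 29 of the 260 lost their call without at least 1 array, and 0 turned their sign. Fits within 1 slide covered fewer of them and also turned no sign: the call was lost in 12 of 80 within slide 1, 4 of 13 within slide 2, 46 of 77 within slide 3, 36 of 76 within slide 4 and 8 of 20 within slide 5. Slide as a fixed term gave 54 called members between PN1 and PN7 (97 in the fit reported), 46 between PN7 and PN14 (70) and 42 between PN1 and PN14 (77). For exposure it gave 12 in Fisher PN1, 0 in Fisher PN7, 10 in Brown Norway PN7, and 16, 8 and 9 at PN14 in Lewis, Fisher and Brown Norway. The share of all probes called in Fisher PN1 became 5.06% in place of 2.75%, and in Fisher PN7 0.0428% in place of 2%. The other shares stand with these counts above. The cause was not tested.

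The 2 calls in Lewis PN1 became 1 with the authors' values, median scaling, no filter or a replicate block, and 0 with only the groups compared, without the 4 arrays in doubt or within slide 3. The 3 calls in Fisher PN7 became 5 with median scaling, 1 with no filter, and 0 with a replicate block, only the groups compared or within slide 4. The block moved no other count of calls by over 1.5 times. Only the groups compared gave 4 in Fisher PN1, and 30 for the exposure by strain test at PN7 (54). Counts in this paragraph are given without shares of all probes and say nothing about carriers in particular. Fits within 1 slide, with fewer arrays, gave 12 in Brown Norway PN1 (slide 3) and 43 and 29 in Lewis PN7 (slides 2 and 4). For strains at PN1 within slide 3 they gave 14 (Brown Norway against Lewis), 4 (Fisher against Lewis) and 19 (Brown Norway against Fisher). Within slide 4 at PN7 they gave 6, 13 and 30 in place of 32, 33 and 59, and within slide 5 at PN14 the last 2 were 5 and 16 in place of 9 and 9. Leaving out single arrays gave 0 to 2 in Lewis PN1, 3 to 8 in Fisher PN1, 0 to 8 in Fisher PN7 and 0 to 9 in Brown Norway PN7. The cause was not tested. Between Lewis PN1 and PN14 within slide 1, a fit chosen after seeing the data, 45 members were called.

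Probes near background, such as Slc16a11 at PN1, limit fold changes from below, and 97 of 305 carriers were too dim to follow.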
